A study of Drosophila melanogaster with 2 samples.

Results

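Lola summits lying close together along the chromosome were taken from the thresholded list of binding positions in Drosophila embryos. A summit is the single base at which a peak was highest. Neighbouring summits on the same chromosome arm were joined while the distance to the next one was under 3000 bp, and a chain was kept when it held 4 or more summits. The members were thus selected on the measured positions and, through the threshold of the list, on the pooled signal. The 135 chains held 646 summits, 10.5% of the list, and the other 5508 summits stood alone or in runs of at most 3.

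Chromatin immunoprecipitation followed by sequencing was carried out on whole embryos of mixed sex aged 0 to 12 h. All embryos came from a transgenic line that stably expresses Lola-RJ with GFP at the C terminus, and the precipitation used an antibody against GFP, while the antibody field of the labels reads lola. Chromatin was sonicated to between 200 and 800 bp. There was 1 group of 2 biological replicates, numbered 1 and 3, and no other genotype or stage was analysed here. Whole embryos mix all tissues and 12 h of development, so summits of 1 chain need not be bound in the same cells. Each peak carries a signal value on the authors' own scale, which served here for ranks and summaries inside 1 list. Values of the 2 replicates are given side by side, and differences between them were not tested. Read depth is unknown.

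Lola (longitudinals lacking) is a family of transcription factors made by alternative splicing, which share a BTB dimerisation domain and differ in their zinc fingers. Several are known for roles in axon growth and guidance and in the gonad. Developmental genes in Drosophila are often controlled by several enhancers spread over introns and flanking DNA, whereas housekeeping genes are often packed head to head, so that start sites of different genes lie close together.

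The DNA under 9 summits, from 7 chains described below, is printed as examples of the bases at clustered summits in each layout. How often each motif occurs over all chain summits is given after the windows and cannot be read from these 9. Each line is a summit with 50 bp on each side, read 5′ to 3′ on the plus strand of the dm6 sequence in the NCBI copy of the assembly. Capitals mark any match, on either strand, to 6 motifs searched: GAGAG (bound by GAGA factor), CAGGTAG (Zelda), TATCGATA (DREF), GGTCACAC (M1BP), CACGTG (the E-box) and TAATTA (homeodomain proteins). The tna windows lie in introns of that gene, at 3L:10845225-10845325 and 3L:10855921-10856021. The Trl window, 3L:14759471-14759571, is intronic too. The wg window, 2L:7296073-7296173, the CASK window, 3R:21828985-21829085, and the tara windows, 3R:16221834-16221934 and 3R:16224462-16224562, are intergenic. The spi window, 2L:19575768-19575868, lies in a promoter, and the Dfd window, 3R:6816907-6817007, is intergenic.
tna summit of signal 535.9: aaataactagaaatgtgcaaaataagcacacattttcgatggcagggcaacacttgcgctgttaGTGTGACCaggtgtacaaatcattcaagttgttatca
tna summit of signal 1021: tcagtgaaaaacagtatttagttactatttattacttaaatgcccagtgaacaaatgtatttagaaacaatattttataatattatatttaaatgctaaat
Trl summit of signal 3148: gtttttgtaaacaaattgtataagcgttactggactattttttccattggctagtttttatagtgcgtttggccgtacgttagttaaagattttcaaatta
wg summit of signal 1043: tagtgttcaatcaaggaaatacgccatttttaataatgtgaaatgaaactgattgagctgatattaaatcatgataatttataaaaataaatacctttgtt
CASK summit of signal 1246: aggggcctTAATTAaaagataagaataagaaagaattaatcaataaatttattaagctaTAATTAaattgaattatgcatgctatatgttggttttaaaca
tara summit of signal 2628: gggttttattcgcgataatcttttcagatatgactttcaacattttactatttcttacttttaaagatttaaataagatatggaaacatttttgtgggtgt
tara summit of signal 1695: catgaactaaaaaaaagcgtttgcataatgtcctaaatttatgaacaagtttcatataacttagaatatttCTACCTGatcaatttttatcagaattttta
spi summit of signal 1515: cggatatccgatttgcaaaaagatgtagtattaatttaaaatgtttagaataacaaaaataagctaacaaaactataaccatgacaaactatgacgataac
Dfd summit of signal 231.8: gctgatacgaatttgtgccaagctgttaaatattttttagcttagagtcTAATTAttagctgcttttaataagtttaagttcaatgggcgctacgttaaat

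The windows are rich in A and T, as were those of summits outside chains. Over the summit and 50 bp on each side, the median A/T share was 71.3% at summits in chains and 71.3% at the others (quartiles 65.3% to 75.2% in both), and 57.8% over the arms. Motifs were counted within 100 bp of the summit and were not tested. GAGAG was present at 123 of the 646 chain summits (19.0%), at 18.05% of the other summits and in 21.5% of 664860 windows of that length tiling the arms. The homeodomain core TAATTA was present at 19.2% of chain summits, 20.3% of other summits and 12.5% of tiles. The Zelda heptamer was present at 8 chain summits (1.24%), 0.654% of other summits and 1.09% of tiles, and CACGTG at 1.39%, 1.38% and 2.36%. The promoter motif TATCGATA was present at 8 chain summits (1.24%, Wilson 95% interval 0.629% to 2.42%) 3.05% of other summits and 0.564% of tiles, and GGTCACAC at 1.08%, 1.76% and 0.430%. Within promoters the TATCGATA shares were 4.55% and 6.56%. Outside promoters GGTCACAC had the opposite order, with 0.813% of chain summits and 0.252% of others. No pair of chain summits with separate windows shared a stretch of 25 bases within 150 bp on each side.

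Most chains were short. There were 82 chains of 4 summits, 26 of 5, 12 of 6, 8 of 7, 4 of 8, 2 of 9 and 1 of 10. Below the limit, 2997 summits stood alone, 843 runs held 2 summits and 275 held 3. The chains covered 693822 bp, which is 0.518% of the arms, with a median span of 4908 bp and a range of 1615 to 15240 bp. The 511 gaps inside chains had a median of 1337 bp (quartiles 736.5 and 1988.5 bp). Of these gaps, 82 (16.0%) were under 250 bp and none was under 199 bp, and 67 chains held at least 1 of them. Whether such neighbours are separate sites was not tested, and 170 members (26.3%) had a peak interval that overlapped that of a neighbour. With a single summit kept for each group of overlapping intervals, 96 chains of 441 summits were left.

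**Figure D1:**
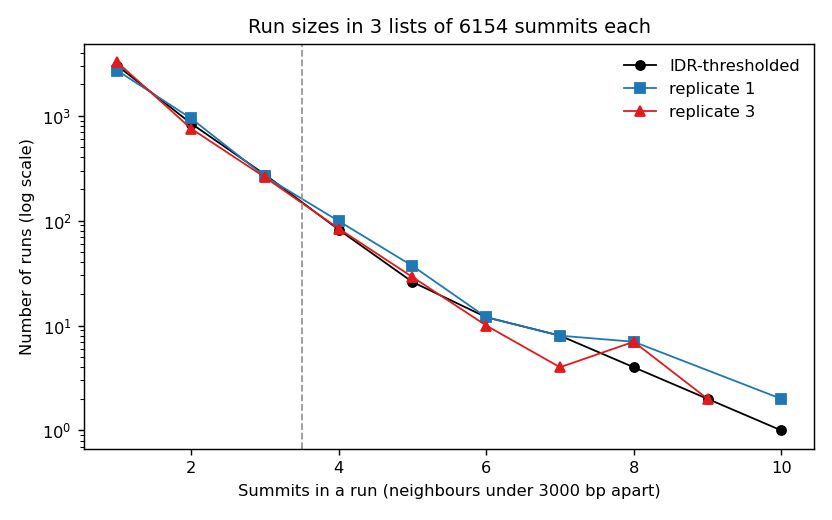
Number of runs (log axis) of each size, in summits per run, for the IDR-thresholded list and for as many of the strongest peaks of each replicate. The dashed line marks the limit of 4 summits, and a size with no run has no point. In all 3 lists the number of runs is lower at each larger size up to 6, and the longest run held 10 summits in the IDR-thresholded list.

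Summits were crowded along the arms as a whole. The median distance between adjacent summits was 6684.5 bp, and the arms held on average a summit in every 21755 bp. A median and a mean are unlike measures, and crowding was not tested. Of 6148 adjacent gaps, 1904 (30.97%) were under 3000 bp. When the summits of each arm were shifted together in a circle 1000 times, the number of chains ran from 134 to 136, around the observed 135. A circular shift moves all summits of an arm together and keeps their spacing, so that this count can change only at the arm ends, and it is therefore given with no test. The shifts do change where the chains fall on the genes, and they were used for that below.

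Just inside the limit, the largest gap in a chain was 2998 bp at fra, 2984 bp at nkd and 2981 bp at edl. Just outside it, a run of 3 summits near Cyt-c1L missed another summit by a gap of 3005 bp, one at RpL8 by 3029 bp and one near Gr93a by 3039 bp.

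Signal varied widely within many chains. The median signal was 306.1 in chains (quartiles 191.4 to 570.6) and 264.6 outside (185.1 to 456.8). Of the 1000 strongest summits 143 (14.3%) lay in chains, and of the 100 strongest 16. Within a chain the strongest summit had a median of 3.97 times the signal of the weakest, with a range of 1.30 to 28.3. Weaker peaks of the pooled list, below the threshold, were also dense there. They numbered 266 inside the chains' spans, or 0.383 per kb, against 0.178 per kb over the arms. No test was made of these values, because signal set the threshold.

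**Figure D2:**
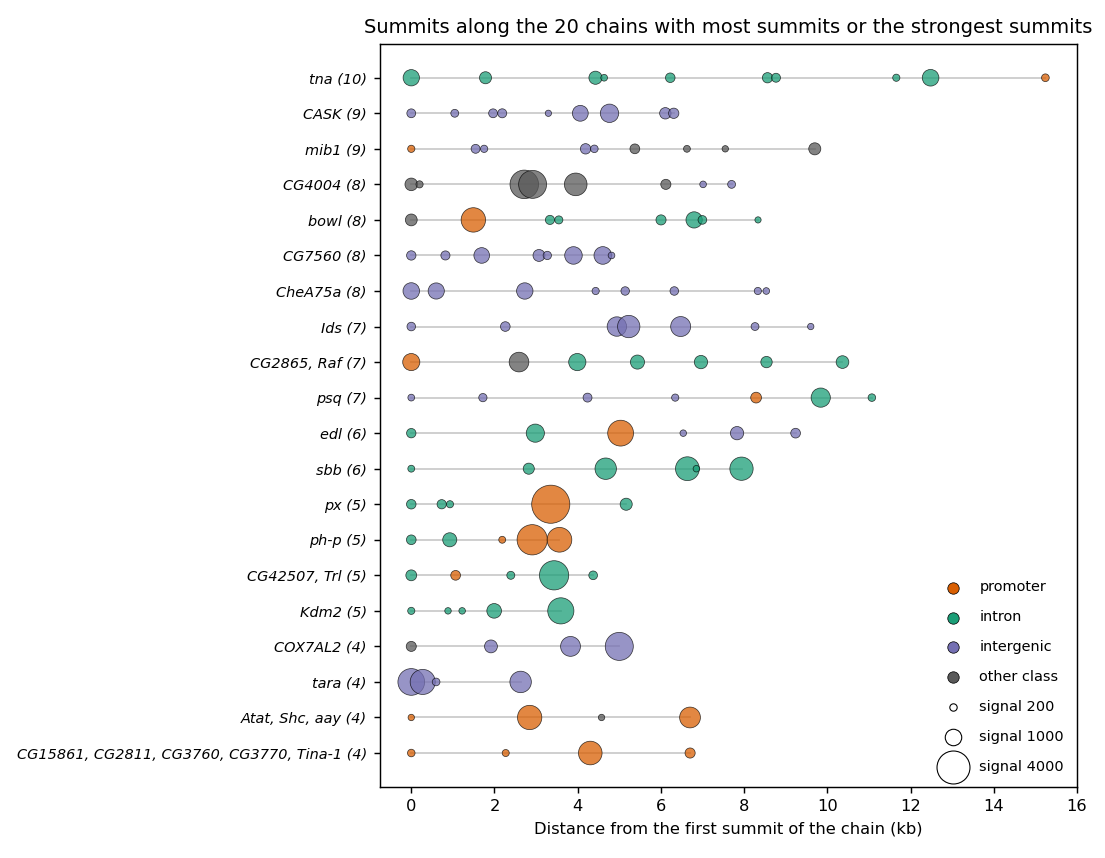
Position of each summit in 20 chains, in kb from the first summit of the chain, for the 10 chains with most summits and the 10 others with the strongest summits. Circle area follows the signal on the authors' scale, colour gives the annotation class, and the number after the gene names counts summits. The chains at CASK and CG7560 lie wholly in intergenic DNA, those at sbb and Kdm2 wholly in introns, and that near Tina-1 wholly in promoters.

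Chain summits lay at promoters less often than other summits, although most chains touched a promoter. Promoters, taken as 500 bp on each side of a coding start site, held 154 of 646 chain summits (23.8%, Wilson 95% interval 20.7% to 27.3%), against 42.4% of the other summits and 40.4% of the whole list. The difference of −18.5 percentage points lay outside the shifts, which gave −0.012 ± 1.67 (SD of 1000 shifts, 95% range −3.29 to 3.30; two-sided permutation p = 0.0020, the smallest the shifts can give, adjusted p = 0.0030 over 3 values). Shifted summits of both kinds fell at promoters less often (11.4% ± 1.66 for chain summits), so the spread of the shifts is that of lists with fewer promoter summits. The difference passed under each of the alternatives tried. Summits, not embryos, are the units of this test, and it describes this list of positions. Spacing, which chose the members, also limits how many summits of a chain fit within a single promoter window. Shifted chains kept the same spacing, but 11.4% of their summits fell at promoters, beside 40.4% of the whole observed list. The test therefore does not show a difference apart from the selection.

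The promoter share was lower in longer runs, apart from runs of 3 and chains of 4. It was 45.9% of 2997 lone summits, 42.8% in runs of 2, 28.7% in runs of 3, 30.8% in chains of 4, 22.3% in chains of 5 and 12.8% in chains of 6 to 10 summits (95% interval 8.73% to 18.3%). The share in intergenic DNA went from 18.8% of lone summits to 36.7% in the longest chains, and the median signal from 259.5 to 335.1. The rule sorted summits by run length and used no annotation. Spacing still limits how many summits of a run fit within a single promoter window, so the promoter share is tied to run length. These shares are given as a description.

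**Figure D3:**
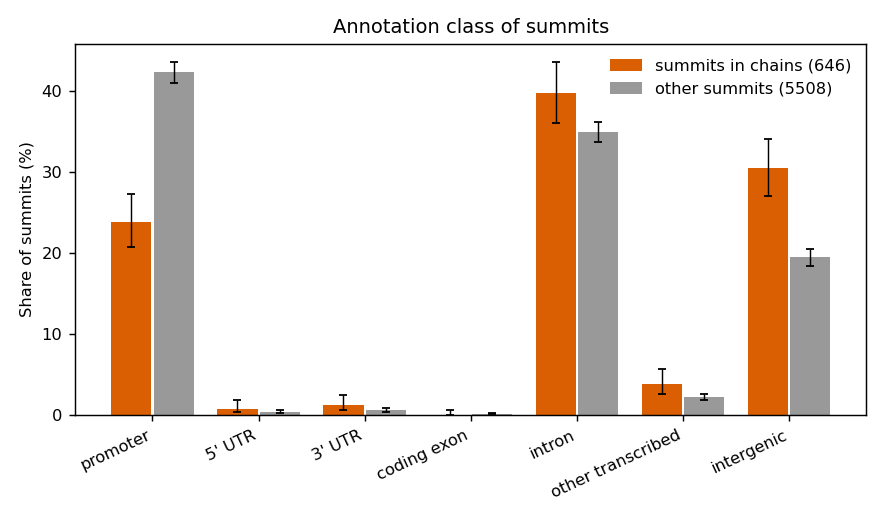
Share of summits (%) in each of 7 annotation classes, for the 646 summits in chains and the 5508 others, with 95% intervals by Wilson's method, for counting error alone. Chain summits are lower in promoters (23.8% against 42.4%) and higher in introns (39.8% against 34.9%) and intergenic DNA (30.5% against 19.5%).

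Introns held 257 chain summits (39.8%, against 34.9% of the others) and intergenic DNA 197 (30.5%, against 19.5%). Genes without a coding sequence held 25 (3.87% against 2.14%), 3' UTRs 8 and 5' UTRs outside promoters 5. Coding exons held 0 of 646, for which the Wilson interval reaches 0.591%, and 6 of the other summits. The median distance to the nearest coding start site was 2093 bp in chains and 1009 bp outside. Promoter summits in chains lay upstream of the start in 122 of 154 cases (79.2%, against 86.1% outside), at a median of 187 bp. Signal at promoter summits in chains had a median of 278.8, below the 314.9 of the other chain summits, whereas outside chains promoter summits were the stronger ones, with 285.3 against 251.5.

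Counted by chain, 82 of 135 held at least 1 promoter summit, against 45.1 ± 5.55 in the shifts (95% range 34 to 56, permutation p = 0.0020, adjusted 0.0030). Of these, 43 held 1 promoter summit, 18 held 2 and 21 held 3 or more. Shifted chain summits fell at promoters in 11.4% of cases, whereas 40.4% of the whole observed list did. The shifts therefore cannot show whether a count above them is particular to chains. Among the stronger 50% of summits by signal the count was 16 against 11.1 (adjusted permutation p = 0.16). Fewer chains than in the shifts lay wholly within the span of a single coding gene, 42 against 57.4 ± 6.04 (95% range 46 to 69, permutation p = 0.014, adjusted 0.014). That last difference was lost in 7 of the alternatives, among them the list of each replicate alone (53 against 57.2 and 66 against 72.7), and is not a firm result. The 42 chains lay in 40 genes, whose median length was 30424 bp, against 2166 bp for all coding genes.

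**Figure D4:**
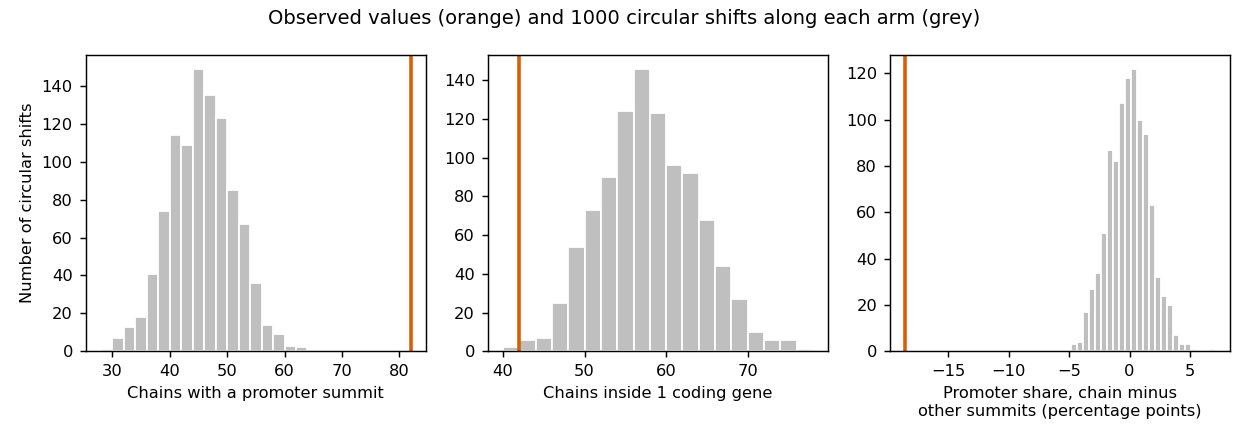
Distribution of 3 values over 1000 circular shifts along each arm (grey, number of shifts) and the observed value (orange line). The observed difference in promoter share of −18.5 points lies below all shifts. The 82 chains with a promoter summit lie above them, and the 42 chains inside a single coding gene lie at their lower edge. Shifted lists have fewer promoter summits, so the count of 82 is not read as particular to chains.

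The first layout was a chain spread through introns. In 21 chains every summit was intronic. The chain with most summits lay in tna, a trithorax-group gene that interacts genetically with the Brahma chromatin remodelling complex. Its 10 summits spanned 3L:10843491-10858730, 9 of them in introns and the last 326 bp downstream of a start site. The strongest, with a signal of 1021 in the pooled list, had 473.8 in replicate 1 and 544.3 in replicate 3. The next, with 980.8, had 549.6 and 433.0. The other 8 ran from 166.8 to 637.8. Of the 10 summits, 7 were found in both replicates, each cut by signal to the length of the thresholded list. At bowl, a zinc-finger gene of the odd-skipped family, 8 summits ran from a non-coding gene upstream through the promoter (2197) into introns (143.4 to 974.4).

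Trl, ph-p and Kdm2 were among the chains named for their strongest summit. In Trl, which encodes GAGA factor, 5 summits covered 3L:14756089-14760460, and the one with 3148 lay in an intron 1528 bp downstream of a start site, with 1446 in replicate 1 and 1713 in replicate 3. The other 4 had 435.6, 350.5, 235.4 and 279.3, so that 1 summit stood far above its neighbours. In ph-p, a subunit of Polycomb repressive complex 1, the 5 summits at X:2134410-2137971 had signals of 346.0, 729.2, 177.0, 3379 and 2249, the last pair 462 bp upstream and 400 bp downstream of start sites. The strongest had 1420 in replicate 1 and 2226 in replicate 3, where it had rank 4. In Kdm2, a histone demethylase gene, 5 intronic summits at 3R:9053943-9057537 ranged from 154.8 to 2522. All 5 summits of Trl and of ph-p were found among the strongest of both replicates, and 2 of the 5 of Kdm2.

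Genes in the list of EGF and FGF pathway genes used below were credited with 4 chains. Chains at genes off that list, such as edl and Shc, are described further on. Raf encodes the kinase that activates MEK below Ras. It held 7 summits over X:2293740-2304103, with 1080 at the promoter of its neighbour CG2865, 1425 in the 5' UTR and 5 intronic summits of 1091, 732.6, 656.2, 476.9 and 593.8. All 7 were found in both replicates, with 229.3 to 772.1 in replicate 1 and 247.2 to 657.3 in replicate 3, and 476.9 was the lowest pooled signal. In aop, which encodes the ETS repressor Yan, 4 summits of 543.3, 275.2, 1021 and 846.5 ran from the promoter into an intron. In Star (S), needed for the release of the EGF receptor ligand Spitz, 4 intronic summits had 234.4 to 791.2. The ligand gene itself, spi, had 3 promoter summits of 250.9, 1515 and 156.0, and the fourth summit of its chain lay 162 bp upstream of msb1l with 365.4.

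The Dpp and Wingless pathways came next. In shn, a zinc-finger effector of Dpp signalling, 6 summits of 167.2 to 1363 formed a chain, and a second chain of 4 stood 10281 bp away in the same gene. In sbb, a transcriptional corepressor, 6 intronic summits included 3 strong ones of 1691, 2089 and 1999. The strongest had 1425 in replicate 1 and 670.8 in replicate 3. The coding start closest to this chain was that of Tango8, 18724 bp away. At dlp, a glypican that binds Wingless and Hedgehog, 2 summits in the promoters of dlp and its neighbour RecQ5 (140.8 and 593.5) stood beside intronic ones of 286.2 and 1488. In nkd, an inhibitor of Wingless signalling, 5 summits of 143.0 to 1417 lay in the promoter and an intron. The ligand gene wg had its chain outside the gene, 8188 to 13509 bp upstream, between Wnt4 and wg at 2L:7293650-7298971. Its 5 summits had 486.1, 163.2, 473.7, 1043 and 239.2 in order along the arm. The strongest of them had 512.5 in replicate 1 and 524.5 in replicate 3, ranks 425 and 431. The weakest was not found in replicate 3.

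In the second layout, chains lay wholly or mostly between genes. In 21 chains every summit was intergenic, and 37 had no summit within a coding gene's span. In these 37 the median distance between the flanking coding genes was 26298 bp. Between CASK, a membrane-associated guanylate kinase, and Gr93a, a gustatory receptor, 9 intergenic summits filled 3R:21824271-21830578. Their signals ran from 144.8 to 1246, and the strongest had 485.4 in replicate 1 and 752.2 in replicate 3. The 9 summits from mib1 towards Notum were weaker, at 152.0 to 536.8. The product of mib1 is a ubiquitin ligase acting on Notch ligands and Notum is a secreted Wingless inhibitor. Of these 9 summits 1 lay in the mib1 promoter, 4 were intergenic and 4 were in genes of long non-coding RNAs, and 8 were found in both replicates.

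At CG4004, 8 summits covered X:12748406-12756104, and 4 of them, including those of 3004, 2883 and 1888, lay in non-coding transcripts, with the long non-coding RNA gene Vinr among those overlapped. The strongest had 1401 in replicate 1 and 1402 in replicate 3. Between CG44362 and CG7560, genes 27293 bp apart, chains of 5 and 8 summits stood 4862 bp from each other, with 1255 and 1147 as their strongest. Between CG7320 and CheA75a, 48451 bp apart, chains of 6 and 8 summits stood 6844 bp apart, with strongest signals of 731.1 and 1010. A chain of 5 summits began 195 bp upstream of the lysosomal sulfatase gene Ids and ended beyond it, and a chain of 7 followed 4749 bp away, between Ids and sty, whose product Sprouty inhibits receptor tyrosine kinase signalling. The longer chain ended 1757 bp short of sty and held summits of 1391, 1838 and 1469. These 3 pairs were all on 3L.

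Upstream of tara, a gene that interacts with the trithorax group, 4 intergenic summits of 2628, 2316, 218.2 and 1695 lay within 2629 bp. A further chain of 4 in its introns began 7593 bp beyond, with up to 1862. In replicate 1 the upstream summits had 1431, 1489, none and 805.6, and in replicate 3 they had 1135, 716.1, 314.3 and 906.1, so the third was seen in replicate 3 alone. At COX7AL2, a cytochrome c oxidase subunit gene, signals rose outward from 373.6 in the 5' UTR through 610.9 and 1453 to 2896 in intergenic DNA. The T-box genes Doc2 and Doc1, which act in amnioserosa and heart, are 22129 bp apart, and the DNA between them held a chain of 4 nearer Doc2 (192.4 to 735.0) and a chain of 4 nearer Doc1 (149.0 to 433.9). Neither was found as a chain in replicate 1. The Hox gene Dfd was the nearest start site to 4 summits of 170.3 to 327.4 at 3R:6815132-6818778, but this chain lay 4342 bp from the span of Scr, another Hox gene. It was not a chain in replicate 3.

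The third layout was a row of promoters of different genes. In 34 chains promoter summits lay near start sites of 2 or more genes, and in 17 near those of 3 or more. A single summit near start sites of 2 genes counted for both. Some of the 34, such as those at CG33298 and Gdi and at eff and jvl, therefore held only 1 promoter summit and no row. In 8 chains every summit was a promoter summit. The chains that follow are named because of their count of promoter genes, a choice made after their values were seen. At Pgm1, SsRbeta, Trs20 and elg1, 4 summits of 247.3, 203.2, 332.6 and 158.2 lay 8 to 302 bp upstream of 4 start sites, within 3L:16128759-16132020. At SmB, a core spliceosome protein gene, CG5188, Bug22 and the general transcription factor gene TfIIB, the summits had 173.3, 217.5, 289.6 and 148.7. At Dysb, Grx1, Blos3 and Uggt they had 510.0, 306.0, 189.4 and 231.6. At the ribosomal protein gene RpS25 and its neighbours SdhC, Tctp and ZnT86D, 4 promoter summits had 236.3 to 479.2, with a further summit in the 3' UTR of Tctp.

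Some rows of promoters were strong. At aay, a phosphoserine phosphatase gene, and Shc, an adaptor of receptor tyrosine kinases, promoter summits had 2177 and 1593, while that of Atat in the same chain had 151.0. At CG3552, CG3434 and CG44838 the promoters held 1534, 530.6 and 1283. In Rtnl1, a reticulon gene, all 4 summits were at alternative promoters of the same gene, with 1842, 255.6, 1113 and 176.8. The strongest summit was a promoter summit in 40 of all 135 chains, beside 34.6 given by each chain's own promoter share. This was not tested.

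The strongest peak of the pooled list and of each replicate belonged to a chain. At px, a gene for a nuclear matrix protein of wing vein patterning, a promoter summit upstream of a start site had 5349 in the pooled list, 2653 in replicate 1 and 2721 in replicate 3. The 4 other summits at 2R:22510948-22516113 were intronic and had 336.4, 316.7, 189.2 and 539.1, and the one of 189.2 was not found in replicate 3. The chain at edl, an antagonist of the ETS activator Pointed, held 6 summits, with 2456 at the promoter and 1216 in an intron. Near Tina-1, 4 summits at promoters of 5 genes had 211.6, 183.9, 2051 and 379.5.

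At lola itself, 4 summits lay at 2R:10542061-10545710. The strongest, 391 bp upstream of a start site, had 1138 in the pooled list, 649.9 in replicate 1 and 527.1 in replicate 3. The next summit, 208 bp away, had 289.1 and 447.4 in replicate 1 and was not found in replicate 3. The others, 1402 and 2419 bp upstream, had 531.1 and 409.3, the last of them in a non-coding gene. The labels call the line an insertion targeting lola and give its isoform and tag but no promoter, and the insertion's part in the signal at lola was not tested. A chain of 7 summits followed 3789 bp away and ended in psq, which encodes another BTB protein known to bind GA repeats. Its signals were 169.8, 251.9, 293.2, 192.6, 428.8, 1361 and 213.1, with 428.8 at the promoter and 1361 in an intron. This strongest one had 661.6 in replicate 1 and 685.9 in replicate 3, and 4 of the 7 were found in both.

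Chains were counted against 13 lists of genes. A gene was credited with a chain as its host, through a promoter summit or, where a chain had neither, as the nearest start site, and 202 of 13945 coding genes (1.45%) were so credited. Long genes and genes with wide flanks have more room for a chain, and no test of the lists was made. Of 42 genes of chromatin, Polycomb and insulator function 3 had a chain (Trl, ph-p and psq), and of 17 BTB zinc-finger genes 3 (Trl, lola and psq). Of 26 EGF and FGF pathway genes 4 had one (Raf, S, aop and spi), of 23 Dpp pathway genes 3 (dlp, sbb and shn) and of 32 Wingless and Hedgehog pathway genes 3 (dlp, nkd and wg). Of 37 blastoderm patterning genes 3 had one (Doc1, Doc2 and the LIM-homeodomain gene tup), and tup was the 1 of 60 homeobox genes outside the Hox clusters. Of 8 Hox genes 1 had one (Dfd) and of 31 Notch pathway genes 1 (mib1). The tup chain was credited by nearest start alone. It lay 13931 to 18838 bp upstream of tup, with ssp3 16248 bp away on its other side.

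Of 31 neuroblast genes 2 had a chain. These were nerfin-1, a zinc-finger gene of early neurons, with 4 summits of 311.5 to 557.8 between mat and nerfin-1, and brat, a translational repressor. The summits of 557.8 and 433.7 were nearest to the start of mat. The chain of 5 at brat (153.9 to 556.8) had 257.1 at the brat promoter and 362.9 at the AsnRS promoter. Its intronic summits, including that of 556.8, were nearest to the start of Polr1D. Of 29 ecdysone response genes 2 had one. At shd, whose product converts ecdysone into its active form, 5 of the 6 summits lay upstream of the start (227.7 to 817.8), and in the nuclear receptor gene Eip75B 4 intronic summits had 185.1 to 241.2. Of 30 microRNA and RNA-binding regulators 2 had one (brat and the splicing factor gene Rbfox1, with 156.3 to 671.0). Of 47 axon guidance genes 2 had a chain (4.26%, beside 1.45% of all coding genes). They were the netrin receptor genes fra and unc-5. In fra the intronic summits had 1042, 155.2, 523.7 and 1191, and all were nearest to the start of CG33752, 1872 to 7328 bp away. At unc-5 there was 1427 at the promoter and 274.3 to 374.2 downstream. The fra chain was not found as a chain in replicate 1 nor that of unc-5 in replicate 3. Genes outside the lists, such as beat-Ib and otk, held chains too and are not counted here.

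Among the longest of the remaining chains, Mnt, a repressor that dimerises with Max, held 7 summits over 9616 bp with signals of 200.3 to 530.6, all found in both replicates. The chain at CG14440, CG14441 and CG14442 spanned 10475 bp with 164.6 to 425.3. A chain of 6 ran from the glec promoter to the promoter of lsn, an ESCRT-II subunit gene, with 150.8 to 880.4, and one of 6 from the promoter of the polarity kinase gene aPKC into ckn, with 217.7 to 544.9. At CG6966, 6 summits had 145.7 to 365.6.

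Single members were looked up in each replicate, with its list cut by signal to the length of the thresholded one. Of the 646 members, 553 (85.6%, beside 83.5% of the other summits) lay within 100 bp of a replicate 1 summit. For replicate 3 there were 545 (84.4%, beside 85.3%). In both, 468 were found (72.4%, Wilson 95% interval 68.9% to 75.8%), beside 71.3% of the whole list. In neither were 16 (2.48%, beside 2.36% of the other summits). The replicates' own lists held 165 chains of 785 summits in replicate 1 and 136 chains of 643 in replicate 3. Of the 135 chains, 104 overlapped a chain in replicate 1, 94 in replicate 3 and 71 in both (52.6%, interval 44.2% to 60.8%), while 8 overlapped none. Between the replicates, 80 of the 165 chains of replicate 1 (48.5%) overlapped one of replicate 3, and 79 of the 136 chains of replicate 3 (58.1%) overlapped one of replicate 1. All members were found in both replicates in 27 chains, and at least 4 were in 60. The thresholded list was made from the reads of both replicates, so these shares are partly fixed by that choice, and 2 replicates of 1 group allow no test.

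**Figure D5:**
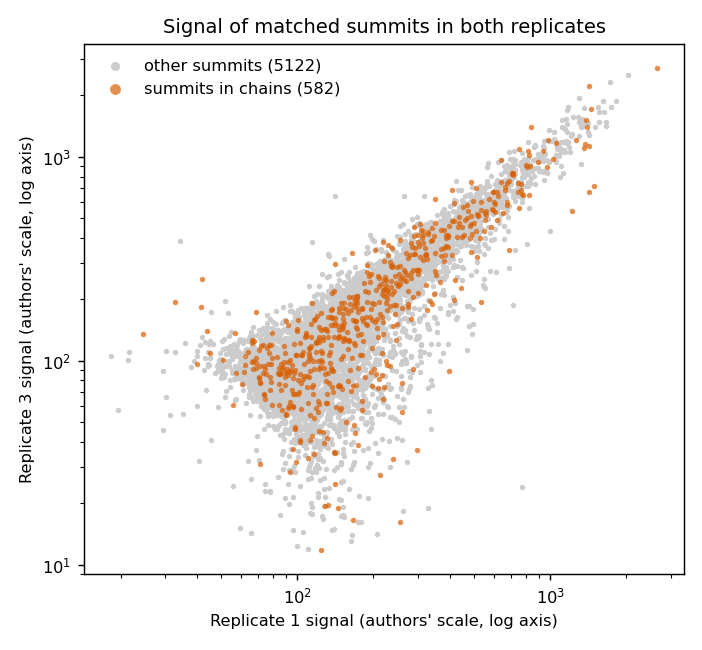
Signal in replicate 1 and replicate 3 (log axes, authors' scale) of the 582 chain summits and 5122 other summits with a matching summit in both full lists. Each point is a summit, and chain summits spread over the same range as the others, with the px summit at the upper right.

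Chains occurred on 5 of the 6 arms. There were 35 on 3L (1.25 per Mb), 29 on X (1.23), 26 on 2L (1.11), 22 on 2R (0.870), 23 on 3R (0.717) and 0 on the short chromosome 4, which has 23 summits in all. The share of summits lying in chains was 12.5% on 3L, 12.7% on X, 10.4% on 2L, 10.1% on 2R and 7.37% on 3R. Of 130 pairs of adjacent chains on an arm, 5 stood less than 5 kb apart and 19 less than 50 kb apart. The closest pair, 3787 bp apart, lay in the forkhead gene CHES-1-like, where 2 chains of 4 summits had strongest signals of 617.8 and 1105.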

How the data were processed

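A peak list was called from each replicate and another from both together, each with a control alignment on dm6, per the submitters' file records. The last list was thresholded by IDR (irreproducible discovery rate). Not given in the sources used here are the aligner and peak caller. Each signal value, a score deposited by the authors on an unstated scale, was ranked and summarised within a list only. Values of the replicates are printed or plotted side by side, and differences between them were not tested. The −log10 q value deposited by the authors ranked nothing in the thresholded list. Summit positions came from the offset deposited by the authors. Testing showed that the thresholded list holds exactly the peaks of highest signal among the 30000 of the pooled list, so it is a cut on pooled signal. Depth is unknown, so intervals cover counting of summits only.

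Chains were built as described. The chains, gene lists and tests were chosen with earlier results of these data known. Genes came from Ensembl release 115 (BDGP6.54). Each summit took the first class that applied, in the order promoter, 5' and then 3' UTR, coding exon, intron, gene without coding sequence and intergenic. Replicate lists were cut to as many peaks and matched within 100 bp; chains matched with an overlap of at least 1 bp. Two-sided permutation p-values from 1000 circular shifts were adjusted by Benjamini-Hochberg over 3 values. The chain finder and shifts were tested on simulated data. Named chains were the 10 with most summits, the 10 others with the strongest summit, the 5 others of longest span, those at lola and up to 3 per gene list; others are named as examples after their values were seen. Symbols of 4 list genes (Z4, Dl, phm and nos) did not match and were not analysed here. Windows printed as sequence were kept off arm 2R, UTRs and coding exons. Python 3.11.15, pandas 2.3.3 and numpy 2.4.6 were used. Other gap limits, chain sizes, thresholds, promoter windows and single replicates were tried as alternatives.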

Additional observations from a re-analysis of the deposited data

How the results depend on the processing

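Of 72 recomputed values, 45 stayed on their side of the threshold or within their spread and none changed direction. The number of chains follows its definition: 65 chains (295 summits) with gaps under 2000 bp, 277 (1434) under 5000 bp, 410 (1471) with 3 or more summits, 53 (318) with 5 or more, 33 (151) among the stronger 50% of summits by signal and 55 (250) from summits found in both replicates, a setting chosen after seeing the data. Without 1 replicate or the other there were 136 to 165 chains and 643 to 785 summits. Chains with a promoter summit numbered 16 against 11.1 in shifts of that stronger 50% (adjusted permutation p = 0.16). They numbered 65 against 45.9 without replicate 1 and 99 against 52.1 without replicate 3. The shifts cannot show whether this count is particular to chains. The deficit of chains inside 1 coding gene was lost with gaps under 2000 bp (26 against 30.0, adjusted permutation p = 0.42), 5 or more summits (15 against 20.8, 0.17), the stronger 50% (13 against 13.8, 0.94), summits found in both replicates (20 against 23.04, 0.49), gene spans with 2000 bp added (72 against 79.8, 0.23) and either replicate alone (53 to 66; adjusted permutation p 0.35 to 0.54). The cause of each loss was not tested. The promoter share of chain summits was 16.7% with 5 or more summits, 15.2% among the stronger 50%, 16.6% to 26.2% with 1 replicate left out, and 15.3% or 31.7% with promoter windows of 250 or 1000 bp, while its difference from the other summits ran from −23.9 to −19.9 points with 1 replicate left out. The median A/T share was 68.3% to 71.3% with 1 replicate left out. With the 12000 strongest peaks of each replicate, 127 chains were found in both. No paired analysis was possible because there is 1 group. The depth of reads is unknown, neighbours under 250 bp apart may be resolved differently at another depth, and whole embryos do not show whether summits of a chain are bound in the same cell.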

Other observations

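Close pairs of summits were common beyond the chains. Of all 6148 adjacent gaps, 437 were under 250 bp, of which 82 lay in chains, and the smallest was 199 bp. Median signal rose with run length, from 259.5 for lone summits and 262.9 in runs of 2 to 281.0 in runs of 3 and 335.1 in chains of 6 to 10, while the share found in both replicates was 73.3%, 66.5%, 73.0% and 71.8% in the same order. Signal set the threshold of the list, so these values carry no test.

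Genes without a coding sequence overlapped 37 chains, and genes of long non-coding RNAs 33. In 36 chains every summit lay more than 2000 bp from any coding start site, and 29 chains had neither a host gene nor a promoter summit. Among these intergenic chains, one lay 4286 bp upstream of the cell death gene rpr (4 summits, strongest 541.6), one 12485 bp upstream of the growth regulator Myc (4 summits, strongest 794.1) and one 7621 bp beyond the T-box gene mid (4 summits, strongest 939.5). The genes rpr, Myc and mid were picked after their values were seen.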
